A study of Mus musculus with 8 samples.

Results

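The insulin-like growth factor (IGF) system was followed in muscle cells in which DOR, the product of Trp53inp2, had been reduced by RNA interference. It was represented by 10 genes chosen by name: the ligand genes Igf1 and Igf2, the non-coding RNA gene H19 that lies beside Igf2 and is imprinted with it, the receptor genes Igf1r, Igf2r and Insr, and the binding protein genes Igfbp2, Igfbp3, Igfbp4 and Igfbp5. Every probe set annotated with 1 of these symbols and no other was a member, which gave 27 of 45037 probe sets and 9 of the 10 genes, out of 18193 genes measured. H19 had no probe set of its own: the probe set listed for it is listed for Mir675 too and is described as the H19/Mir675 probe set, outside the counts of members.

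C2C12, the established line studied here, consists of mouse myoblasts that can fuse into myotubes. In 4 of the 8 cultures the cells carried a lentivirus encoding DOR siRNA, and in the other 4 a lentivirus encoding scrambled RNA, and these are called the controls. Both groups were transduced at an moi of 100, grown for 5 to 7 days, sorted to between 93 and 99% GFP-positive cells and then kept for 4 days in 5% horse serum, as the labels' protocols state. The labels also name the cells confluent myoblasts, so the stage at harvest is not settled, and how the replicate cultures arose is not stated, so that p-values measure the spread between these cultures only. Muscle markers were high: the 8 muscle genes Myod1, Myog, Des, Myh3, Acta1, Ckm, Tnnt3 and Mef2c read between 9.16 and 14.77 log2 units. Below 6.18, the median of all values, on every array stayed 3 of 4 endothelial and 3 of 3 measured blood markers, but 2 of 4 adipocyte markers (values up to 8.93) and 1 of 3 osteoblast markers (values up to 6.61).

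IGF1 and IGF2 are secreted peptides that signal through the IGF1 receptor and, for IGF2, also through the insulin receptor, both of them tyrosine kinases. The IGF2 receptor binds IGF2 without such signalling and carries it to lysosomes, and the binding proteins hold the ligands outside cells and set how much is free. In myoblasts IGF2 made by the cells themselves rises during differentiation and promotes it. Igf2 and H19 are neighbouring imprinted genes that share enhancers, with Igf2 expressed from the paternal and H19 from the maternal copy.

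Sequences are shown for the locus on which the largest member change fell, and for Igf1, the other ligand gene. Means of Igf1 were higher in the knockdown, but unevenly so and not past the threshold of the test given below. RefSeq lists 4 start sites for Igf2 and 1 for Igf1. The 250 bases before the most upstream Igf2 start, before the most downstream Igf2 start and before the Igf1 start are given 5′ to 3′ on the gene's strand (build GRCm38.p6). Capitals mark 2 kinds of motif: the E-box CANNTG, which reads the same way on both strands in this form and is the kind of site that myogenic factors bind, and the GC box GGGCGG or its reverse complement CCGCCC.
Igf2, chr7:142666817-142667066, minus strand: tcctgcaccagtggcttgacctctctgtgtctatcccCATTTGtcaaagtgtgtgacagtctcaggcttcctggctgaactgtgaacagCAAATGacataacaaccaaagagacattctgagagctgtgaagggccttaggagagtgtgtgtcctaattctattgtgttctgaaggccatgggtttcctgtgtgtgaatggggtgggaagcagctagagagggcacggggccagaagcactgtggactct
Igf2, chr7:142657497-142657746, minus strand: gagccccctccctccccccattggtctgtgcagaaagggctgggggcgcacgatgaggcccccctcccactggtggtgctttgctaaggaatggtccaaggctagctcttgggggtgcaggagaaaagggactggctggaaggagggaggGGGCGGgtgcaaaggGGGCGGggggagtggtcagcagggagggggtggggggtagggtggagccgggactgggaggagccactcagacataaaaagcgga
Igf1, chr10:87860861-87861110, plus strand: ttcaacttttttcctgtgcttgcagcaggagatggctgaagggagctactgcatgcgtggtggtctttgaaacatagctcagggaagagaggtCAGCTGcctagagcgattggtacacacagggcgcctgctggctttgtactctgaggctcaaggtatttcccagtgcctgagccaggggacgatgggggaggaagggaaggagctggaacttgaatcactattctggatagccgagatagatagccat
An E-box stood in 1 of the 4 Igf2 windows, 2 times in the first one shown, and 1 time in the Igf1 window, there as CAGCTG. A GC box stood in 2 of the 4 Igf2 windows, 2 times in the second one shown. Over all 32851 RefSeq windows of this length 66.2% held an E-box and 32.7% a GC box, so neither motif is particular to these genes. Which start the Igf2 transcripts came from was not measured here. In all, 8 of the 10 genes had a window.

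Both genes of the imprinted pair hold a microRNA within their span, and one of these shares the annotation of the H19 probe set. The mature sequences from RefSeq follow, with bases 2 to 8, the seed that pairs with targets, in capitals. No 2 of the 4 seeds are the same.
mmu-miR-675-5p: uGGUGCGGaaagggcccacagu
mmu-miR-675-3p: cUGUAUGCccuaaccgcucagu
mmu-miR-483-5p: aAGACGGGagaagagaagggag
mmu-miR-483-3p: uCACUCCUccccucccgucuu
The first pair comes from Mir675 in H19, the second from Mir483 in Igf2. These mature microRNAs were not measured here.

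The knockdown was visible in the target. The brighter probe set of Trp53inp2 averaged 11.35 ± 0.29 log2 units in the scrambled and 9.51 ± 0.31 in the DOR siRNA arrays (SD, n = 4 each), lowest among the controls on scrambled 4 (10.92), and its difference was -1.83 ± 0.17 (SE; limma adjusted p = 8.7e-04). The dimmer probe set differed by 0.14 ± 0.08 (limma adjusted p = 0.52). Arrays were alike in scale, with medians from 6.14 to 6.20. DOR siRNA 2 stood apart in a sign of RNA or amplification quality: its 3′ minus 5′ control difference was 0.07 for Gapdh, against -0.16 to -0.09 on the other 7 arrays, and 0.50 for actin, against 0.28 to 0.40.

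Of the 9 member genes measured, Igf2 was the one that passed the test of the groups; Igfbp4 also passed, upward, when same-numbered cultures were paired. Igf2 fell 1.99-fold, while Igf1 was unevenly higher, Insr and Igf2r were slightly lower and Igf1r differed little, none of these 4 past the threshold. Of the 27 member probe sets 1 passed limma's test at an adjusted p under 0.05 over all probe sets, downward, and none upward, while 6 were higher and 4 lower by the raw p at the same threshold. Over the whole array 3.22% passed (2.04% upward and 1.19% downward), so the members' share is near the background, and 8.46% upward and 6.88% downward had a raw p under 0.05. The 6 higher probe sets were all of Igf1 and Igfbp4, and the 4 lower ones of Igf2, Igf2r and Insr. By the brightest probe set of each gene 1 of 9 fell, against 4.56% of all genes in either direction, and the median difference was 0.15 log2 units against 0.02 over all genes. At a raw p under 0.05, 1 of the 9 genes was higher and 3 were lower, where of all 18193 genes 2091 were higher and 1192 lower. Every difference is in log2 units with the knockdown minus the controls, and levels of different probe sets are not compared, since probes differ in brightness.

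**Figure D1:**
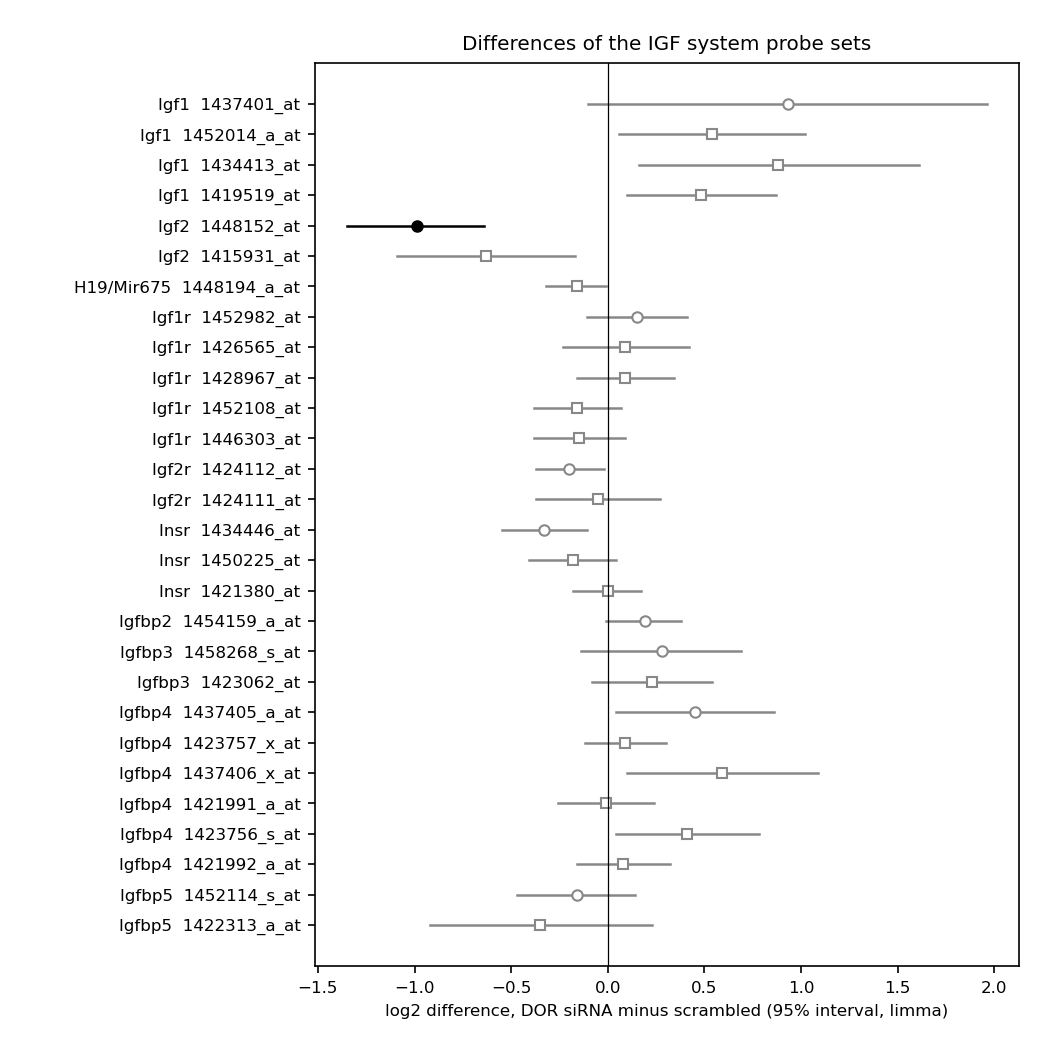
Log2 difference, DOR siRNA minus scrambled, of the 27 member probe sets and the H19/Mir675 probe set (rows), with the 95% interval from limma; circles are the brightest probe set of a gene, squares the others, and the filled symbol is the one with an adjusted p under 0.05. The brighter Igf2 probe set lies at -0.99, the 4 Igf1 probe sets lie between 0.48 and 0.93, and most other intervals include 0.

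Igf2 encodes the ligand that C2C12 cells make as they differentiate. Its brighter probe set read 10.94, 11.17, 11.20 and 10.70 log2 units on scrambled arrays 1 to 4. On DOR siRNA arrays 1 to 4 it read 9.86, 9.63, 10.20 and 10.34. Every knockdown culture thus lay below every control, with the narrowest distance between those numbered 4. Groups that do not overlap were found for 9.85% of all probe sets in either direction and 4.05% downward, and among the members for this probe set and for 1 of Igf2r. Means were 11.00 ± 0.23 and 10.01 ± 0.32 (SD, n = 4 each), which is a log2 difference of -0.99 ± 0.16 (SE; limma adjusted p = 0.0094). With any 1 array left out the difference stayed between -1.11 and -0.87, with limma adjusted p from 0.0057 to 0.039; without DOR siRNA 2 it was -0.87. In those fits the share of all probe sets that passed was 1.82, 3.01, 1.37 and 2.37% without DOR siRNA 1 to 4, and 1.39, 1.49, 1.35 and 5.13% without scrambled 1 to 4. The Igf2 call also held under cyclic loess (3.3% passed), median centring (2.89%), a variance trend with a robust prior (3.05%) and a filter on dim probe sets (7.48%).

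The dimmer Igf2 probe set pointed the same way, but its values lay around or under the median of all values (6.18). It read 5.66, 6.19, 6.34 and 6.32 in the controls and 5.06, 5.25, 5.67 and 6.02 in the knockdown cultures. The groups overlapped, both means (6.13 and 5.50) were under the median of all values, and the probe set was not shown to be above background. Its difference of -0.63 ± 0.21 had a limma adjusted p of 0.15. In the fit that keeps same-numbered cultures together (the paired fit) it passed, at an adjusted p of 0.011, with each of the 4 pairs lower in the knockdown. As the mean over both probe sets, Igf2 differed by -0.81 (limma adjusted p = 0.022), where 6.01% of all genes passed.

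H19 is a long non-coding RNA that is abundant in embryonic and differentiating muscle. The H19/Mir675 probe set read 14.66, 14.67, 14.70 and 14.53 in the controls and 14.48, 14.53, 14.48 and 14.43 in the knockdown cultures. All 8 values lay near the top of the scale, where the arrays' highest values were 15.04 to 15.13, and only 8 probe sets had a higher mean. The lowest control and the highest knockdown value both round to 14.53. The difference was -0.16 ± 0.07 (95% interval -0.32 to -0.01; limma adjusted p = 0.30), lower in 4 of 4 pairs and not past the threshold. A fall of the size measured for Igf2 lies outside that interval, but whether the probes were saturated was not tested.

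Genes with a profile over the 8 arrays most like that of Igf2 were sought among 11264 genes, by the root mean square difference between profiles centred on their own means. The nearest was Rap1gap2, which encodes a GTPase-activating protein for Rap1, at 0.17 log2 units. Cops7a, a subunit of the COP9 signalosome, and Neb, the giant protein of the muscle thin filament, followed at 0.22 each, against a median of 0.58 over the genes ranked. These 3 genes fell in the knockdown (log2 differences -1.01, -1.12 and -0.90, limma adjusted p = 0.011, 5.5e-04 and 0.0024), so the likeness holds the difference between the groups. Rap1gap2 read 10.09, 10.11, 10.69 and 10.73 in DOR siRNA arrays 1 to 4 and, like Igf2, was higher in the last 2 of these than in the first 2.

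Some markers of the differentiated state were lower beside Igf2. Of the 8 myogenic markers 3 fell, where 263 of all 18193 genes were called lower (4.56% were called in either direction). These were Mef2c, a transcription factor of muscle genes (-1.53 ± 0.16), Tnnt3, fast troponin T (-0.70 ± 0.16), and Myh3, the embryonic myosin heavy chain (-0.42 ± 0.09). Ckm, muscle creatine kinase, passed only in the paired fit (-0.65, limma adjusted p = 0.18 without and 0.0063 with pairing). Myog, Acta1, Des and Myod1 differed by -0.31, -0.23, -0.07 and -0.05, not past the threshold in either fit. At an unadjusted p under 0.05, 6 of the 8 were lower, where of all 18193 genes 1192 were lower and 2091 higher. None rose, and the mean level of the 8 was 12.83 to 13.06 on the control and 12.34 to 12.54 on the knockdown arrays. In the list of myoblast and proliferation markers 3 of 5 rose, where 566 of all 18193 genes were called higher. These were Ccnd1 (1.01 ± 0.11), Top2a (0.59 ± 0.11) and Mki67 (0.50 ± 0.11). The mean level of the 5 was 7.97 to 8.28 on the control and 8.63 to 8.91 on the knockdown arrays. Myf5, a myoblast transcription factor, joined them in the paired fit (0.45, limma adjusted p = 0.080 without and 0.044 with pairing). None of the measured adipocyte (4), osteoblast (3), endothelial (4) or blood (3) markers passed limma's test; 1 adipocyte marker was higher and 1 blood marker lower at an unadjusted p under 0.05. Of the adipocyte markers Adipoq stayed at or below 3.44, while Cebpa averaged 7.16 and 8.06 (difference 0.91 ± 0.25, with a limma adjusted p of 0.080 and, under pairing, of 0.022). In bulk RNA, fewer cells that express a gene and less RNA of it per cell cannot be told apart, and the part of the markers in the fall of Igf2 was not tested.

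**Figure D2:**
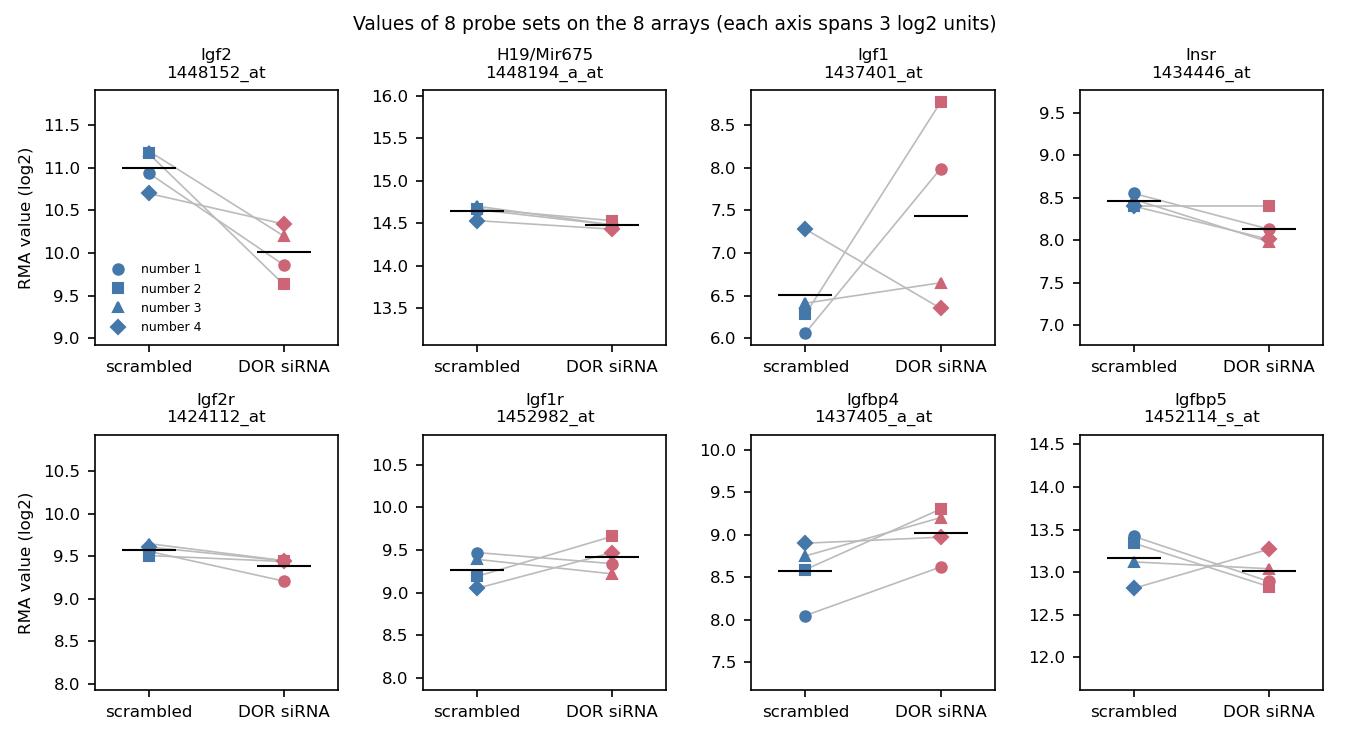
RMA values (log2) of 8 probe sets on the 8 arrays, scrambled at left and DOR siRNA at right of each panel; marker shapes give the culture number, grey lines join same-numbered cultures, black bars are group means, and each axis spans 3 log2 units. Igf2 separates the groups, Igf1 is high in DOR siRNA 1 and 2 and in scrambled 4, and the Igf1r values are mixed.

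Igf1 encodes the other ligand, which binds the IGF1 receptor. All 4 of its probe sets had a higher mean in the knockdown, and none passed. Signals were low in the controls, with means of 6.51, 6.51, 6.25 and 5.74 from the brightest to the dimmest, against 6.18 as the median of all values. Whether they were above background was not tested. The brightest read 6.06, 6.28, 6.41 and 7.28 in the controls and 7.99, 8.77, 6.65 and 6.35 in the knockdown cultures. High values therefore came from DOR siRNA 1 and 2, DOR siRNA 3 and 4 lay among the controls, and scrambled 4 was above both of these. The SD was 0.53 in the controls and 1.14 in the knockdown, and the difference of 0.93 ± 0.47 had a 95% interval from -0.10 to 1.96 (limma adjusted p = 0.39).

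The other Igf1 probe sets shared the highest array. For the third brightest the values were 5.92, 6.12, 6.03 and 6.91 in the controls and 7.60, 7.90, 6.76 and 6.26 in the knockdown cultures, a difference of 0.88 ± 0.33 (limma adjusted p = 0.21). The second brightest read 6.32, 6.30, 6.43 and 6.98 in the controls and 7.29, 7.58, 6.67 and 6.65 in the knockdown cultures. Differences of the second and the dimmest were 0.54 ± 0.22 and 0.48 ± 0.17 (limma adjusted p = 0.25 and 0.19). In each of the 4 probe sets DOR siRNA 2 was the highest array, and the pair numbered 4 was the 1 pair of 4 that was lower in the knockdown. Without DOR siRNA 2 the difference of the brightest was 0.48, and without scrambled 4 it was 1.18, neither past the threshold. The 3′ to 5′ control values of DOR siRNA 2 given above also stood apart, and their part in the Igf1 values was not tested.

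The receptors differed less. Insr, the insulin receptor gene, read 8.55, 8.40, 8.48 and 8.40 by its brightest probe set in the controls and 8.13, 8.40, 7.98 and 8.01 in the knockdown cultures. In the knockdown 3 of 4 cultures lay below all controls, and DOR siRNA 2 lay among them. The mean went from 8.46 ± 0.07 to 8.13 ± 0.19 (SD, n = 4 each), a difference of -0.33 ± 0.10 with a 95% interval from -0.55 to -0.11 (limma adjusted p = 0.11), which did not pass. It passed with arrays weighted by their quality (-0.40, limma adjusted p = 0.019, where 5.84% of all probe sets passed) and without DOR siRNA 2 (-0.42, limma adjusted p = 0.022, where 3.01% passed). As the mean over its 3 probe sets, 2 of which had both group means under 6.18, Insr differed by -0.17 (limma adjusted p = 0.12).

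Igf2r encodes the receptor that clears IGF2. Its brightest probe set read 9.56, 9.51, 9.65 and 9.61 in the controls and 9.21, 9.44, 9.45 and 9.45 in the knockdown cultures. The groups did not overlap, yet the distance between them was small and the difference of -0.20 ± 0.08 did not pass (95% interval -0.37 to -0.02; limma adjusted p = 0.26). The other Igf2r probe set differed by -0.05 ± 0.15 with overlapping groups. A probe set listed for both Airn and Igf2r differed by 0.07 ± 0.10, with both means below 6.18.

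Igf1r, the main signalling receptor of both ligands, showed no shared direction. Its brightest probe set read 9.47, 9.19, 9.39 and 9.05 in the controls and 9.34, 9.66, 9.22 and 9.47 in the knockdown cultures. The groups overlapped, 2 pairs were higher and 2 lower, and the difference was 0.15 ± 0.12 (95% interval -0.11 to 0.41; limma adjusted p = 0.63). Across its 5 probe sets the differences ran from -0.16 to 0.15, with 3 above and 2 below 0 and limma adjusted p of 0.55 or more. The interval of the brightest probe set leaves room for a change of up to 0.41 log2 units upward, so a small change cannot be told from none.

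**Figure D3:**
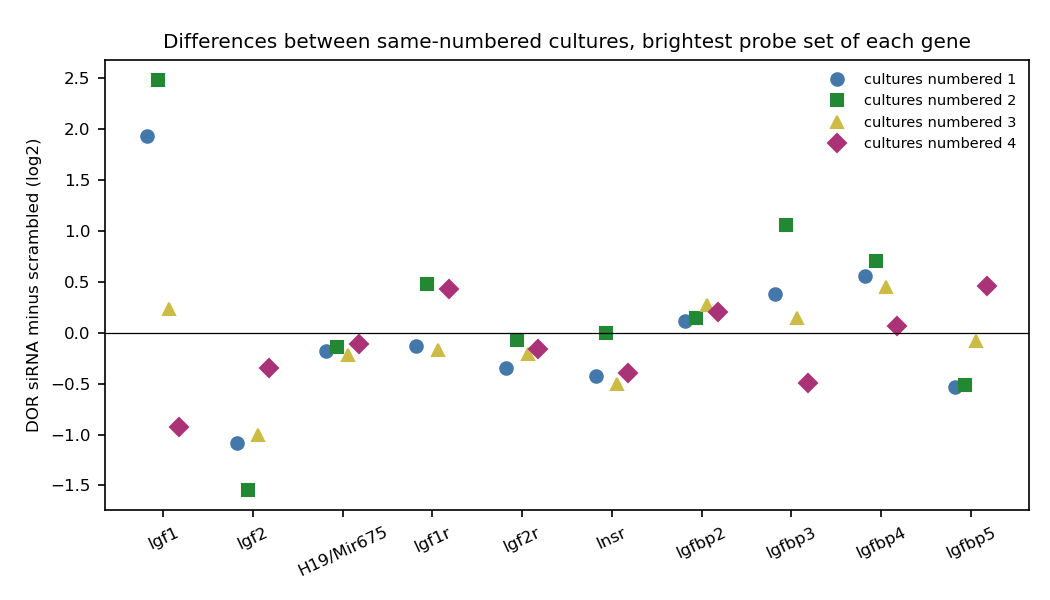
Log2 difference between the DOR siRNA and the scrambled culture of the same number (vertical axis) for the brightest probe set of each gene and the H19/Mir675 probe set (horizontal axis), with 1 symbol per culture number. All 4 pairs are lower for Igf2, H19/Mir675 and Igf2r and higher for Igfbp2 and Igfbp4, and the pair numbered 4 opposes the other 3 for Igf1, Igfbp3 and Igfbp5.

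Of the 4 binding protein genes among the members, Igfbp4 had the largest difference by the brightest probe set, and its call depended on the pairing. IGFBP4 is best known for restraining IGF action. Its brightest probe set read 8.05, 8.59, 8.75 and 8.90 in the controls and 8.62, 9.30, 9.20 and 8.97 in the knockdown cultures. The groups overlapped, but the knockdown culture was the higher one in 4 of 4 pairs, by 0.56, 0.71, 0.45 and 0.07. Without pairing, the difference of 0.45 ± 0.19 had a limma adjusted p of 0.27; in the paired fit it was 0.45 ± 0.11 (limma adjusted p = 0.041). Without scrambled 1, the lowest control, the unpaired difference was 0.28 (limma adjusted p = 0.55).

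Of the 6 Igfbp4 probe sets 3 behaved in this way and 3 did not. Besides the brightest, 2 others, with the suffixes _x_at and _s_at, were higher in every pair and passed in the paired fit. The first of these read 7.19, 7.31, 7.91 and 7.38 in the controls and 7.39, 8.45, 8.39 and 7.94 in the knockdown cultures, and the second 6.59, 7.10, 7.15 and 7.30 against 7.08, 7.77, 7.49 and 7.44. In the paired fit the first differed by 0.59 ± 0.13 and the second by 0.41 ± 0.10 (SE; limma adjusted p = 0.035 and 0.040). Single pairs differed by 0.20 to 1.13 in the first and by 0.14 to 0.67 in the second. Without scrambled 1 their unpaired differences were 0.51 and 0.26 (limma adjusted p = 0.46 and 0.54). The other 3 differed by 0.09, 0.08 and -0.01, with limma adjusted p of 0.75 or more. The suffix _x_at marks probe sets whose probes may bind other transcripts and _s_at those that may be shared between genes. The probe set that differed by 0.09 carries _x_at too. The brightest carries _a_at, as do those that differed by 0.08 and -0.01, so the suffix does not separate the probe sets that were higher from the others. The brighter probe sets of Igfbp3 and Igfbp5 also carry _s_at. As means over their probe sets, Igfbp4 differed by 0.27 and Igfbp5 by -0.26 (limma adjusted p = 0.27 and 0.54). Under the paired fit 3 member probe sets were called higher and 2 lower, all of them of Igfbp4 and Igf2, beside 6.28% of all probe sets (3.47% higher and 2.81% lower).

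Igfbp2, which encodes a binding protein of embryonic and proliferating cells, had 1 probe set. It read 11.54, 11.43, 11.21 and 11.47 in the controls and 11.66, 11.58, 11.48 and 11.67 in the knockdown cultures. The knockdown was the higher one in 4 of 4 pairs, but the groups overlapped and the difference of 0.19 ± 0.09 did not pass (95% interval -0.01 to 0.38; limma adjusted p = 0.36). Igfbp3, whose product carries most IGF in blood, read 6.12, 5.80, 6.05 and 6.66 in the controls and 6.50, 6.86, 6.20 and 6.17 in the knockdown cultures by its brighter probe set. As for Igf1, DOR siRNA 2 was the highest array and scrambled 4 the highest control. The difference was 0.28 ± 0.19 (limma adjusted p = 0.57), and both means (6.16 and 6.43) lay close to 6.18, the median of all values. The dimmer Igfbp3 probe set differed by 0.23 ± 0.14 (limma adjusted p = 0.51), with both means (5.66 and 5.89) under the median of all values.

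Igfbp5 encodes the binding protein typical of differentiating myoblasts. Its brighter probe set read 13.42, 13.34, 13.12 and 12.81 in the controls and 12.89, 12.83, 13.04 and 13.27 in the knockdown cultures. The first 3 pairs were lower in the knockdown and the pair numbered 4 was higher, by 0.46. The mean difference was -0.16 ± 0.14 (limma adjusted p = 0.67). The dimmer probe set gave the same direction in each pair and a low value of 9.72 on DOR siRNA 2; it differed by -0.35 ± 0.26, and by -0.04 without that array.

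The cultures numbered 4 differed from the rest in several members but not in all, by the brightest probe set of each. In that pair Igf2 differed by -0.35, and each of the other 3 pairs differed by more, up to -1.54. For Igf1 the pair gave -0.93, against 0.23 to 2.48, for Igfbp3 -0.49, against 0.15 to 1.06, and for Igfbp5 0.46, against -0.53 to -0.08. For Igfbp4 it gave 0.07, against 0.45 to 0.71. It lay within the range of the other pairs for Igf2r (-0.16), Insr (-0.39), Igf1r (0.43) and Igfbp2 (0.20). Trp53inp2 itself differed by -1.74 in this pair, within the -2.04 to -1.62 of the others. Whether the pair differs from the others beyond the spread of single cultures was not tested, since it is 1 pair.

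Other genes of the system came from 3 lists. Proteins that bind, cleave or process IGFs or their binding proteins, or that bind Igf2 mRNA, together with an orphan receptor of the family, had 15 measured genes of 16. Of these 1 rose, none fell and 14 did not pass, a share near the 4.56% of all genes called, with a median of -0.02. The gene that rose was Htra1, a secreted serine protease that can cleave IGF binding proteins, whose mean went from 10.63 to 11.23 (0.61 ± 0.13, limma adjusted p = 0.028), with every knockdown array above every control. Its call was lost with any of 5 arrays left out: scrambled 1 to 3 and DOR siRNA 1 and 3 (limma adjusted p of at most 0.075). Igfbp7, a low-affinity binding protein named after its values were seen, differed by 0.69 ± 0.18 (limma adjusted p = 0.066) and passed in the paired fit (0.038).

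In the list of receptor substrates, adaptors, PI3-kinase, AKT, FOXO and mTOR genes, 26 of 28 were measured and none passed limma's test. By the raw p at that threshold 4 were higher and 5 lower, with a median difference of -0.03. Among all 18193 genes 2091 were higher and 1192 lower by the same measure, with a median of 0.02. The smallest p-values belonged to Pik3cb, a catalytic subunit of PI3-kinase (-0.44 ± 0.12, limma adjusted p = 0.070), and Grb14, an adaptor that restrains the insulin receptor (0.36 ± 0.10, limma adjusted p = 0.072). Both means of Grb14, 4.04 and 4.40, lay under the median of all values. In the paired fit, where 8.25% of all genes passed, 3 genes were lower: Pik3cb, the lipid phosphatase gene Inppl1 (-0.31, limma adjusted p = 0.039) and the imprinted adaptor gene Grb10 (-0.68, limma adjusted p = 0.035), the last 2 named after their values were seen.

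In the list of other imprinted genes, which shares Grb10 with the signalling list, 23 of 24 were measured. Of these 2 rose, 1 fell and 20 did not pass, against 4.56% of all genes called, with a median of -0.02. Cdkn1c, a cyclin-dependent kinase inhibitor gene, fell by 1.81 ± 0.23 (limma adjusted p = 0.0033), on every knockdown array below every control. Sgce, the gene of a sarcoglycan, rose by 0.53 ± 0.09 (limma adjusted p = 0.012; 0.24 and not passing as the mean over its probe sets). Ndn, the gene of the growth suppressor necdin, rose by 0.92 ± 0.21 (limma adjusted p = 0.039) and lost the call with each array left out except scrambled 4 (limma adjusted p of at most 0.12).

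**Figure D4:**
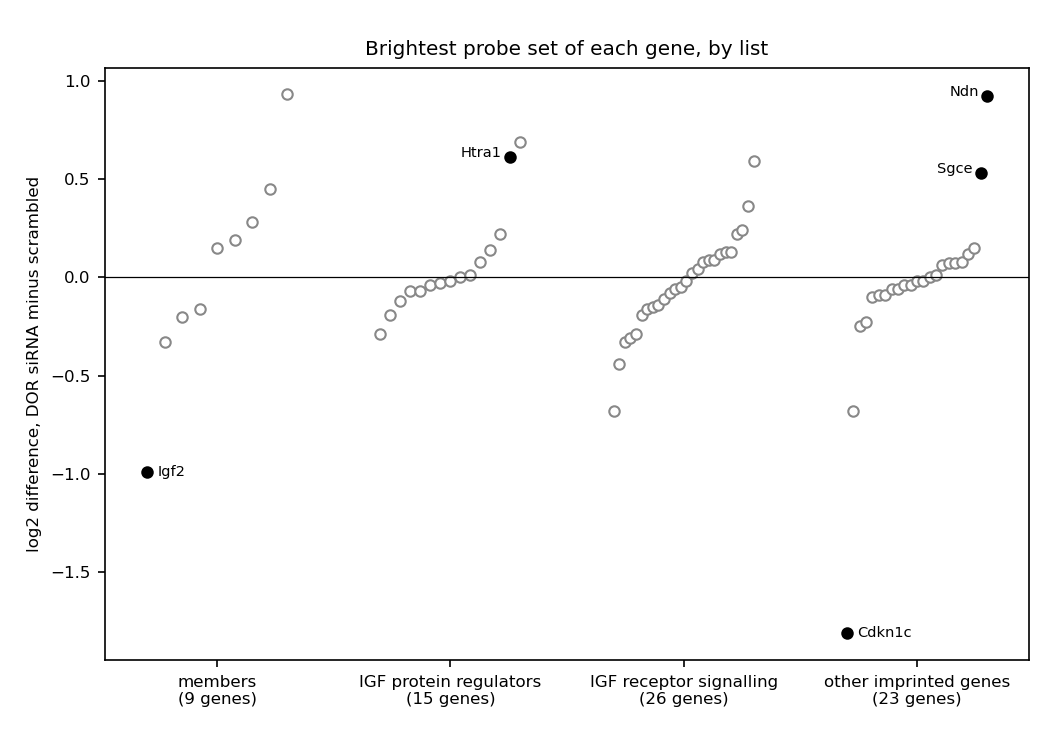
Log2 difference, DOR siRNA minus scrambled (vertical axis), of the brightest probe set of each gene, sorted within the members and the 3 lists (horizontal axis); filled and named points have a limma adjusted p under 0.05. Igf2 at -0.99 and Cdkn1c at -1.81 are the filled points below 0, and most other genes lie within 0.5 of it.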

How the data were processed

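For each of the 8 C2C12 cultures 25 ng of RNA went onto a 1-colour Affymetrix array. The deposited values are log2 signals that the authors obtained with RMA (submitters' processing notes); no RMA version was found in the sources used here. RMA makes the arrays' distributions alike, so a shift of all transcripts would not be visible, and the number of arrays limits the precision.

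After removal of 64 control probe sets, the platform annotation gave 1 symbol for 34945 probe sets, several for 932 and none for 9160; 34741 of the first group had an identifier listed by RefSeq. The test was limma 3.58.1 (R 4.3.3; group as the only term, eBayes, two-sided, Benjamini-Hochberg adjustment across 45037 probe sets); differences carry standard errors or 95% intervals. Members and lists were chosen with earlier results of these data known. The text names all members, Trp53inp2, called genes of each list (or the 2 with the smallest p) and the 3 profiles nearest to Igf2; H19, with no probe set of its own, was not profiled. Where 1 value stands for a gene, it comes from the brightest probe set. Cultures of the same number were treated as pairs in the paired fit: their deviations from group means had correlations between 0.142 and 0.468, all above 0.1, and other pairs of arrays between -0.394 and 0.265; for 5 of 8 arrays the strongest correlation was with the same number. Alternatives were the paired fit, cyclic loess, median centring, a variance trend with robust prior, array weights, a filter on dim probe sets, means over a gene's probe sets and leaving out each array in turn. Plots were made in matplotlib 3.10.9.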

Additional observations from a re-analysis of the deposited data

Results flagged for a closer look

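Among 70 groups of 4 arrays checked, 4 held a value far from the other 3, and chance alone gives about 1 in 20, or 3.5. The brighter Igf2r probe set read 9.21 on DOR siRNA 1, with the other knockdown arrays at 9.44 to 9.45, and the dimmer one read 8.61 on DOR siRNA 2, with the others at 8.07 to 8.16. Htra1 read 10.47 on scrambled 4, below the other controls at 10.67 to 10.69. Ndn read 6.80 on scrambled 4, above the other controls at 5.78 to 5.95.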

How the results depend on the processing

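The fall of the brighter Igf2 probe set stayed past the threshold in each alternative run. Over all probe sets 1452 passed, 2827 with the replicate block (the paired fit) and 2628 with array weights; without DOR siRNA 1 and 3 the counts were 821 and 615, without scrambled 1, 2, 3 and 4 they were 627, 669, 608 and 2310. Member probe sets called higher numbered 0, and 3 with the replicate block. Member probe sets called lower numbered 1, and 2 with the block, with array weights or without DOR siRNA 2. By gene, 1 was called higher with the block, and 2 were called lower with array weights or without DOR siRNA 2, against 0 and 1. IGF protein regulators called higher numbered 1, 2 with array weights, the block or without DOR siRNA 4, and 0 without scrambled 1 to 3 or DOR siRNA 1 or 3. In the receptor signalling list 3 were lower with array weights, the block or without scrambled 4, 2 with means over probe sets or without DOR siRNA 2, and 0 at the lowest; 1 was higher with array weights or without scrambled 4, against 0. Of the other imprinted genes 2 were called higher, 1 with means over probe sets, the robust prior or any array but scrambled 4 left out; 1 was lower, 2 with the block or without scrambled 4. The block changed no call of a member beyond the dimmer Igf2 and 3 Igfbp4 probe sets. Why these counts moved was not tested. Differences of dim probe sets, or of those near the top of the scale, may be compressed.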
